A study of Homo sapiens with 6 samples.

Results

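The 32 genes described here encode the steps that take glucose into the cell and turn it into pyruvate and lactate, together with enzymes of the pentose phosphate branch and of gluconeogenesis. They were chosen by name, as a list of gene symbols, and each symbol matched 1 of the 58302 Ensembl identifiers counted in the RNA-seq data. Their rule uses no measured value, but the list was drawn up with earlier results of these data known. The cells are labelled MDA-MB-231, a breast cancer line, and expressed either control shRNA (3 libraries, below control 1 to 3) or Smyca shRNA #1 (3 libraries, below knockdown 1 to 3). Smyca is a lncRNA, annotated as MIR23AHG, and the comparison asks how its depletion alters the transcriptome. The Smyca shRNAs were cloned to pLKO.1, the vector of the control shRNA is not given in the sources used here, and cells with 1 Smyca shRNA were sequenced, so an effect of the shRNA other than the loss of Smyca cannot be told apart from it. The labels give the same culture protocol for all 6 libraries, and they do not say whether a group was a clone or a pool. The study calls the replicates biological repeats, without saying whether they were separate cultures, and p-values measure only the spread between these samples.

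Glycolysis splits glucose into pyruvate in the cytosol, and many tumor cells run it quickly even with oxygen present and export the lactate made from pyruvate, which is called the Warburg effect. Most steps are served by several isoenzymes, some of them housekeeping forms and some of them forms that hypoxia-inducible factor (HIF) or c-Myc switches on. The pentose phosphate branch draws glucose 6-phosphate off to make NADPH and ribose for nucleotides.

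Each library held between 14999307 and 16501085 counts. Values are given as normalized CPM, the counts scaled to a common library size after a correction for library composition, and a fold change is the control over the knockdown on the log2 scale, with its standard error (SE). Smyca itself stood at 25.0, 19.5 and 22.0 normalized CPM in control 1, 2 and 3, and at 10.5, 6.97 and 5.61 in knockdown 1, 2 and 3. The groups did not overlap, with a log2 fold change of 1.53 (SE 0.26) and an adjusted p of 0.111. Where no other test or set of libraries is named, adjusted p-values came from the quasi-likelihood test of edgeR with all 6 libraries and were corrected by the Benjamini-Hochberg method across the 15075 genes tested. Without control 3 the adjusted p of Smyca was 0.0152, across 15449 genes.

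The libraries went against their cell line label. CDKN2A, which is homozygously deleted in MDA-MB-231, lay between 335 and 429 normalized CPM in all 6 libraries. HNF4A, VIL1, CDX2 and EPCAM, which mark gut, liver or other epithelium, each reached 1 CPM in every library, as 4 of the 14 markers of that list, and 4 of the 14 had no count in any library. The summed level of that list was 630.4 to 787 in the control and 892 to 957 in the knockdown. The sum does not stand for each gene, since of the 6 tested 2 were higher and 4 lower in the control. VIL1 had a log2 fold change of -0.62, EPCAM 0.03 and LGALS4 1.14. Of 10 mesenchymal and basal breast markers, 9 reached 1 CPM in every library, with sums of 986 to 2234 and 913 to 1363, and SPARC, the other one, stayed under it. Of 8 luminal breast markers, 5 did so, with sums of 1129 to 2239 and 1164 to 1451, while PGR, the progesterone receptor, was at 0 throughout. CDKN2A and these epithelial markers were present in both groups, and the cells are called below by their label only. The FPKM column deposited for control 2 was also closer to control 3 than to the counts of control 2, and the counts are used here for all libraries.

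With edgeR's test, no gene of the list passed the criteria of the study. These are a control to knockdown ratio from 1.5 up or from 0.66 down, together with an adjusted p under 0.05. The study applied them with DESeq v1.10.1, which was not run here. Of 31 genes tested, 0 passed, beside 4 of all 15075 genes, or 0.0265%. FBP1, the gluconeogenic fructose-bisphosphatase, was the gene left out for low counts, with 6, 6 and 12 counts in the control and 6, 7 and 3 in the knockdown. The adjusted p of the 31 lay between 0.122 and 0.965.

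Of these, 5 genes reached an unadjusted p under 0.05. SLC2A3, PFKFB4 and ENO2 were higher in the control, which is 9.68% of the genes tested here against 10.4% of all genes. SLC16A1 and RPIA were lower in the control, or 6.45% against 8.74% of all genes. Neither share was above the background. By size alone, 7 genes had a ratio of at least 1.5 (SLC2A3, HK2, PFKFB3, PFKFB4, ALDOC, PGK1 and ENO2), or 22.6% against 15.6% of all genes, and 0 had a ratio of at most 0.66, against 5.54%. Without control 1, HK2, PFKFB3 and PGK1 no longer reached the upper ratio, which left 4 genes, or 12.9% against 14.98% of all genes. The median log2 fold change was 0.095 over the 31 genes, 20 of which were higher and 11 lower in the control, and 0.036 over all genes. Without control 1 the median of the list was -0.057, and without control 3 it was 0.20.

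**Figure D1:**
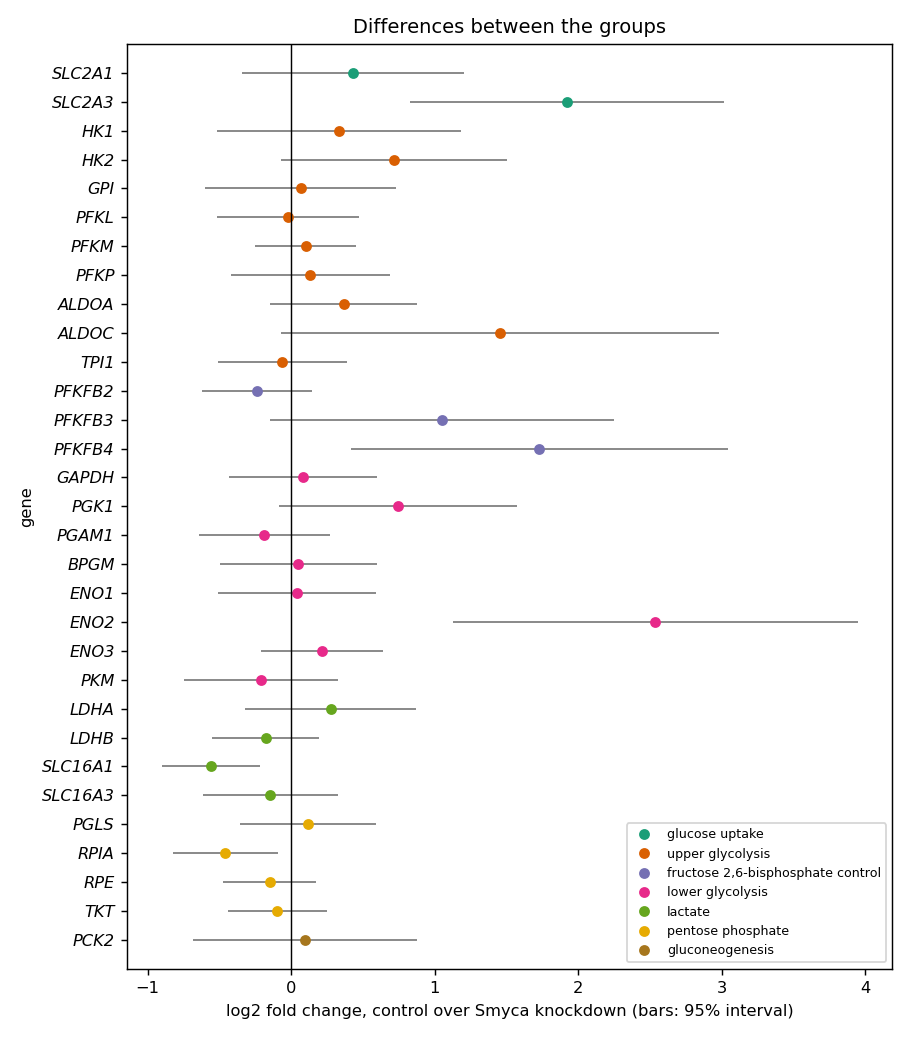
Log2 fold change of control over Smyca knockdown for the 31 genes tested, on the x axis, with 95% intervals as bars and colours by role. The intervals of ENO2, SLC2A3 and PFKFB4 lie above 0, those of SLC16A1 and RPIA below 0, and the others include 0.

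The count of calls turned on control 3, on the test and on the filter for low counts. Without control 3, 8 genes passed the criteria (SLC2A3, ENO2, PFKFB4, PFKFB3, ALDOC, HK2 and PGK1 higher in the control, SLC16A1 lower), or 25.8% against 10.5% of all genes. With all libraries, DESeq2's Wald test called SLC2A3 and ENO2, or 6.45% against 5.55% of all genes. Without a filter on low counts, edgeR's test called SLC2A3, ENO2, PFKFB4 and ALDOC, or 12.5% against 3.01%. The genes with an unadjusted p under 0.05 and higher in the control then numbered 10 without control 3 (32.3% against 15.7% of all genes), 5 with DESeq2 (16.1% against 10.1%) and 7 without a filter (21.9% against 7.55%). Those lower in the control numbered 2 each time (6.45% against 13.9%, 6.45% against 9.47% and 6.25% against 5.67%).

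Glucose enters through the transporters GLUT1 and GLUT3, encoded by SLC2A1 and SLC2A3. SLC2A3, on the minus strand of chromosome 12 from 7919230 to 8019007 in GRCh38, stood at 1079, 512 and 215 normalized CPM in control 1, 2 and 3, and at 175, 158 and 145 in knockdown 1, 2 and 3. Every control library lay above every knockdown library, but the lowest control, control 3, was close to the knockdown, and the control spanned a 5.01-fold range. The log2 fold change was 1.92 (SE 0.48, 95% interval 0.83 to 3.01), with an adjusted p of 0.124. Without control 1 it was 1.199. SLC2A1, the widespread basal transporter, was at 3023, 1630 and 1102 in the control and 1562, 1610 and 1102 in the knockdown. The groups overlapped, and control 1 alone stood high, with a log2 fold change of 0.43 (SE 0.34) and an adjusted p of 0.517. Without control 1 it turned to -0.057. Per gene length, SLC2A3 made up 22.1%, 20.0% and 13.5% of the reads of both transporters in the control and 8.20%, 7.24% and 9.47% in the knockdown. The share was thus higher in all 3 control libraries.

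Hexokinases trap glucose as glucose 6-phosphate. HK2, the form that HIF and insulin signaling raise, was at 363, 215 and 119 normalized CPM in the control and at 125, 138 and 161 in the knockdown, and control 3 lay below all knockdown libraries. Its log2 fold change was 0.72 (SE 0.35, adjusted p 0.298), 0.25 without control 1 and 1.03 without control 3. HK1, the housekeeping form, was at 418, 349 and 162 in the control and at 162, 223 and 353 in the knockdown, with control 1 the highest of the 6 libraries and the other controls among the knockdown values (log2 fold change 0.33, SE 0.37). GPI, which converts glucose 6-phosphate to fructose 6-phosphate, was at 956, 805 and 414 in the control and 552, 734 and 791 in the knockdown (log2 fold change 0.07, SE 0.29). Here too control 3 lay below all knockdown libraries.

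Phosphofructokinase commits the sugar to glycolysis, and its 3 isoforms had fold changes near 0. The log2 fold changes were 0.13 (95% interval -0.42 to 0.69) for PFKP, the platelet form, 0.10 (-0.25 to 0.45) for PFKM, the muscle form, and -0.02 (-0.52 to 0.47) for PFKL, the liver form. PFKP was the main isoform per gene length, with 59.1% to 66.8% of the family in the control and 61.4% to 62.8% in the knockdown. Aldolase then splits the hexose. ALDOA, the main form, was at 1744, 1408 and 961 normalized CPM in the control and 916, 1186 and 1094 in the knockdown (log2 fold change 0.36, SE 0.22). ALDOC, the brain form, was at 30.3, 23.9 and 2.69 in the control and at 6.54, 7.60 and 6.60 in the knockdown. Control 1 and 2 were high, control 3 was the lowest of the 6 libraries, and the log2 fold change of 1.46 (SE 0.67) had an adjusted p of 0.279. That fold change was 0.95 without control 1 and 1.96 without control 3. TPI1, triosephosphate isomerase, had a log2 fold change of -0.06 (SE 0.20).

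The PFKFB enzymes make and break the sugar bisphosphate that activates phosphofructokinase. PFKFB4, on the minus strand of chromosome 3 from 48517684 to 48562015, was at 85.2, 53.3 and 14.2 normalized CPM in the control and at 9.14, 14.3 and 22.7 in the knockdown. Control 3 lay among the knockdown libraries, so the groups overlapped, with a log2 fold change of 1.73 (SE 0.58, 95% interval 0.41 to 3.04) and an adjusted p of 0.169. Without control 1 it was 1.14, and the unadjusted p no longer lay under 0.05 there, nor without knockdown 1 or 2 or with the replicate number as a block. The gene shares 298 exon bases with UCN2 on the same strand, and reads there cannot be assigned to either. The same limit holds for GPI, PFKP, ALDOA, PGK1, LDHB and SLC16A3, which share exon bases with another gene on their strand, up to 1639 bases for ALDOA, 997 for LDHB and 542 for GPI. PFKFB3, a strong driver of glycolysis in tumor cells, was at 295, 135 and 45.3 in the control and at 74.7, 74.8 and 80.5 in the knockdown. Its 3 knockdown values were within a 1.08-fold range, whereas the control spanned 6.51-fold on both sides of them (log2 fold change 1.05, SE 0.53, adjusted p 0.316). The log2 fold change was 0.24 without control 1 and 1.48 without control 3. PFKFB2, the heart form, was at 30.3, 23.8 and 25.8 in the control and 34.5, 27.4 and 32.2 in the knockdown (log2 fold change -0.24, SE 0.17).

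In lower glycolysis, GAPDH and PGK1 yield NADH and ATP, PGAM1 and enolase rearrange the product, and PKM makes pyruvate. ENO2, the neuronal enolase, on the plus strand of chromosome 12 from 6913745 to 6923698, was at 389, 159 and 53.9 normalized CPM in the control and at 29.0, 26.0 and 48.9 in the knockdown. The groups did not overlap, although control 3 exceeded knockdown 3 only slightly. The log2 fold change of 2.54 (SE 0.62, 95% interval 1.13 to 3.95) was the largest of the 31 genes and had an adjusted p of 0.122. Without control 1 it was 1.63. ENO1, the main enolase, was at 4744, 4026 and 2709 in the control and 2860, 3917 and 4393 in the knockdown (log2 fold change 0.04, SE 0.24). ENO3, the muscle form, overlaps exons of PFN1 on the other strand and had a log2 fold change of 0.21 (SE 0.19). ENO2 made up 7.10%, 3.53% and 1.79% of the enolase reads per gene length in the control and 0.92%, 0.61% and 1.03% in the knockdown, so ENO1 supplied from 91.4% to 97.7% of the family over the 6 libraries.

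PGK1 was at 2427, 1770 and 734 normalized CPM in the control and at 897, 948 and 1105 in the knockdown. Control 1 and 2 lay above all knockdown libraries and control 3 below them (log2 fold change 0.74, SE 0.36, adjusted p 0.307). That fold change was 0.35 without control 1 and 1.09 without control 3. GAPDH, the internal control of many RT-PCR assays, was at 3884, 3326 and 2217 in the control and 2461, 3049 and 3391 in the knockdown, with a log2 fold change of 0.08 (95% interval -0.43 to 0.60). PKM, at 3276, 3073 and 1921 in the control and 2494, 3474 and 3584 in the knockdown, had a log2 fold change of -0.21 (SE 0.24). The counts are per gene and do not separate the PKM splice forms. PGAM1 and BPGM, which shift phosphate on the glycerate, had log2 fold changes of -0.19 (SE 0.20) and 0.05 (SE 0.24).

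**Figure D2:**
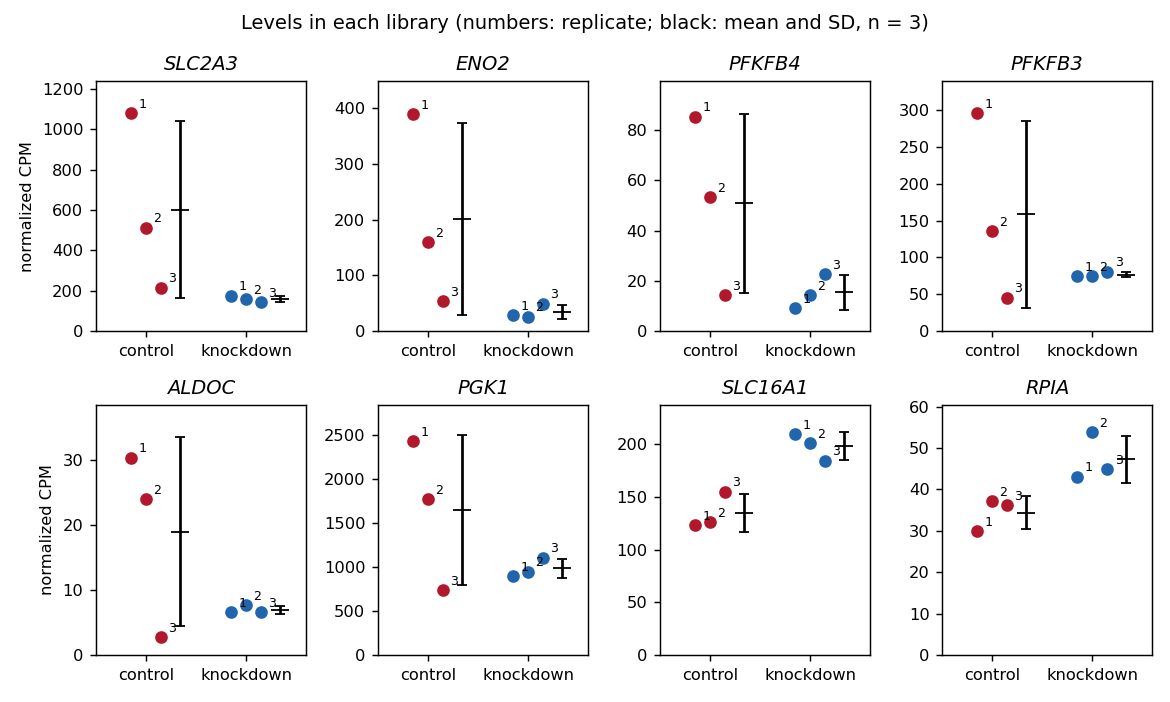
Normalized CPM of 8 genes in each library (y axis, linear from 0), with control in red, Smyca knockdown in blue, the replicate number beside each point, and the mean and SD (n = 3) in black. Control 1 and 2 stand above the knockdown for the first 6 genes, control 3 lies near or below it, and SLC16A1 and RPIA lie lower in all 3 control libraries.

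Lactate dehydrogenase interconverts pyruvate and lactate, with LDHA favouring lactate. LDHA was at 2244, 1925 and 1091 normalized CPM in the control and 1211, 1479 and 1656 in the knockdown (log2 fold change 0.28, 95% interval -0.32 to 0.87, adjusted p 0.588). LDHB was at 1047, 1076 and 1132 in the control and 1036, 1180 and 1469 in the knockdown (log2 fold change -0.18, SE 0.16). LDHA made up 59.7%, 55.2% and 39.9% of the reads of both genes per length in the control, and 44.6%, 46.4% and 43.7% in the knockdown. Control 3 thus had the lowest LDHA share of all libraries, below the knockdown.

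Lactate leaves or enters through the monocarboxylate transporters MCT1 and MCT4, encoded by SLC16A1 and SLC16A3. SLC16A1, on the minus strand of chromosome 1 from 112911847 to 112957593, was at 123, 126 and 155 normalized CPM in the control and at 210, 201 and 184 in the knockdown. All knockdown libraries lay above all control libraries, with little spread in either group. The log2 fold change was -0.56 (SE 0.15, 95% interval -0.90 to -0.21), the adjusted p was 0.129, and DESeq2's Wald test gave an adjusted p of 0.0236, with a fold just short of the ratio criterion. Over all alternatives the adjusted p ran from 0.0236 to 0.440. SLC16A1 shares exon bases with SLC16A1-AS1 on the other strand. SLC16A3, the exporter typical of glycolytic cells, was the more abundant, with 79.7% to 90.2% of the reads of both transporters per length over the 6 libraries, and had a log2 fold change of -0.15 (SE 0.21).

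In the pentose phosphate branch, RPIA, which makes ribose 5-phosphate, lies on the plus strand of chromosome 2 from 88691673 to 88750929. It was at 29.9, 37.1 and 36.2 normalized CPM in the control and at 43.1, 53.8 and 45.0 in the knockdown. The groups did not overlap, with a log2 fold change of -0.46 (SE 0.16, 95% interval -0.82 to -0.09) and an adjusted p of 0.181. Without control 1 or knockdown 2 the unadjusted p of RPIA no longer lay under 0.05. RPE and TKT, the epimerase and the transketolase of the non-oxidative steps, had log2 fold changes of -0.15 (SE 0.14) and -0.10 (SE 0.15), and PGLS, the lactonase of the oxidative steps, 0.12 (SE 0.21). PCK2, the mitochondrial phosphoenolpyruvate carboxykinase, was at 125, 139 and 162 in the control and at 221, 88.1 and 89.5 in the knockdown. Knockdown 1 stood high for PCK2, and the log2 fold change was 0.09 (SE 0.34). It was 0.67 without knockdown 1, with an unadjusted p under 0.05, and turned to -0.14 without knockdown 2, -0.13 without knockdown 3 and -0.016 without control 3.

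By non-overlap alone, 2 genes were higher in all 3 control libraries (SLC2A3 and ENO2), or 6.45% against 12.4% of all genes, and 2 were lower (SLC16A1 and RPIA), or 6.45% against 12.5%. Both shares were below the background. Over both directions, 14 genes did not overlap without control 3 (45.2%, beside 49.2% of all genes) and 11 without knockdown 1 (35.5%, beside 34.9%).

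Ratios of isoenzymes within a library do not depend on how libraries are scaled. Of 11 pairs compared, 3 did not overlap between the groups, where 24.8% of all genes, taken singly, did not overlap over both directions. Each of the 3 had a two-sided exact permutation p of 0.1, the smallest that 3 against 3 libraries allow. Their adjusted p was 0.367 over the 11 pairs. The log2 ratio of ENO2 to ENO1 was higher by 2.14 in the control, that of SLC2A3 to SLC2A1 by 1.31, and that of PFKFB4 to PFKFB3 by 0.81. In the other 8 pairs the groups overlapped, with differences from -0.91 for PFKFB2 to PFKFB3 to 0.53 for ALDOC to ALDOA. Single libraries moved both ends. The difference for PFKFB2 to PFKFB3 was -0.37 without control 1, -1.60 without control 3 and -0.36 with reads recovered from the FPKM values of control 2 in place of its counts, and that for ALDOC to ALDOA was 0.085 without control 1, 0.10 without control 2, 1.39 without control 3 and -0.39 with those recovered reads. Without knockdown 1, PFKFB4 to PFKFB3 came to 0.50. The design cannot reach an exact p under 0.05 for any pair.

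The control libraries differed from each other more than the knockdown libraries did. The median SD of the log2 values over the 31 genes was 0.42 in the control and 0.24 in the knockdown, beside 0.27 and 0.23 over all genes. Control 3 was the lowest control library for 24 of the 31 genes (77.4%, beside 40.8% of all genes), and control 1 the highest for 23 (74.2%, beside 34.6%). For 18 genes control 3 lay below all 3 knockdown libraries (58.1%, beside 30.6%). Knockdown 1 was the lowest knockdown library for 23 genes (74.2%, beside 31.2%). All 9 genes of upper glycolysis were lowest in control 3 among controls and in knockdown 1 among knockdowns.

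**Figure D3:**
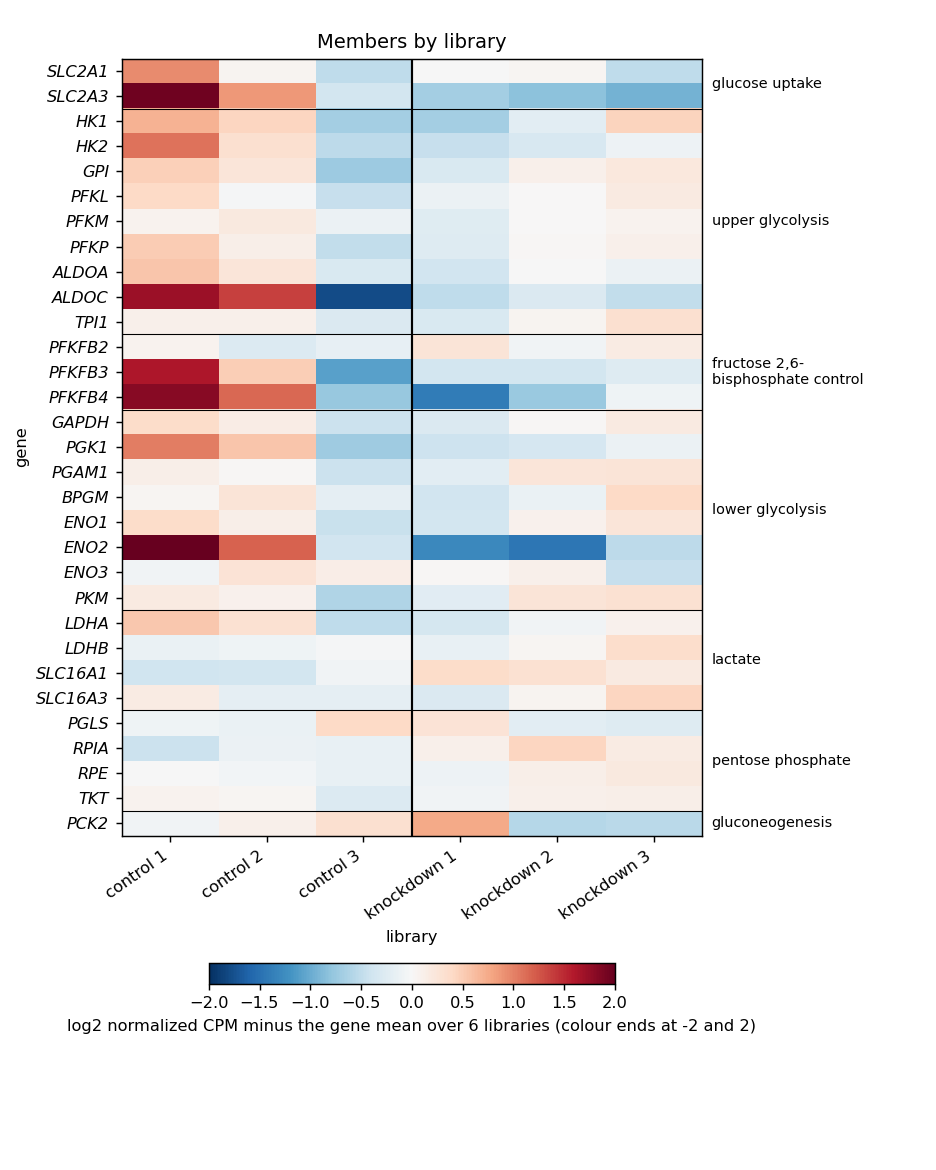
Log2 normalized CPM of the 31 genes tested in each library, minus the mean of the gene over the 6 libraries, as colour that ends at -2 and 2, with genes in rows by role and libraries in columns. Control 1 is the highest control library for 23 genes and control 3 the lowest for 24.

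Genes known as HIF targets but outside glycolysis shared the order within the control, but not the place of control 3 against the knockdown. Control 1 was the highest control library for 15 and control 3 the lowest for 16 of the 18 genes listed, while control 3 lay below all knockdown libraries for 2 (11.1%, beside 30.6% of all genes). Of these 18 genes, 18 were higher in the control on average, 14 with an unadjusted p under 0.05, against 10.4% of all genes, and 7 without overlap, against 12.4%, and 0 had an adjusted p under 0.05. Their median log2 fold change was 1.24, and 0.80 without control 1. The largest were NDRG1 (3.44, SE 1.03), ANGPTL4 (2.80, SE 0.81) and ADM (2.70, SE 0.56), and the smallest BNIP3 (0.49, SE 0.33). Relative to each gene's mean, their median in the 6 libraries was 1.32, 0.69 and -0.42 in the control and -0.65, -0.94 and -0.46 in the knockdown. That of upper glycolysis was 0.50, 0.24 and -0.50 in the control and -0.31, 0.01 and 0.10 in the knockdown. Their part in the glycolytic values was not tested.

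**Figure D4:**
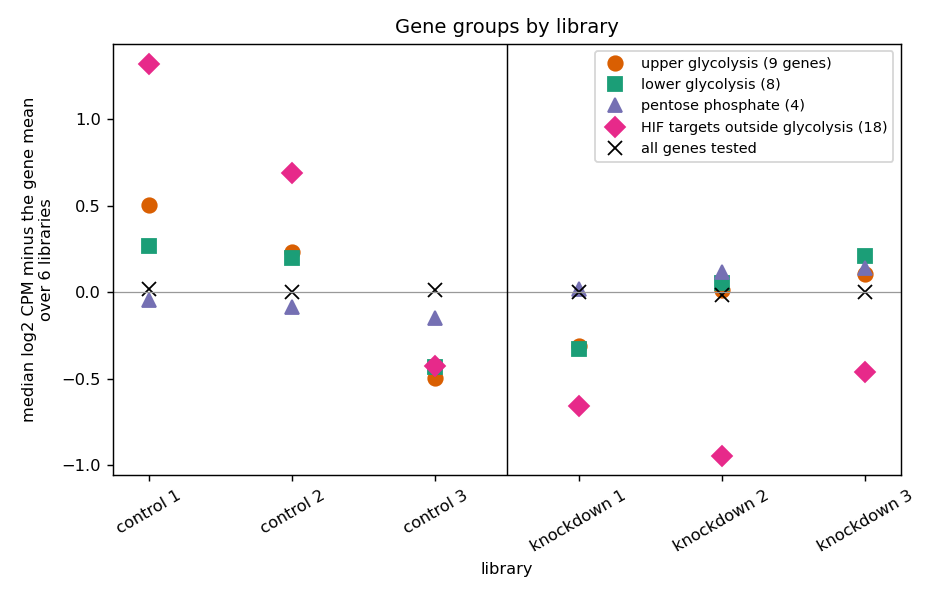
Median log2 CPM minus the gene mean over the 6 libraries (y axis) for 3 gene groups of the list, for HIF targets outside glycolysis and for all genes tested, in each library on the x axis. Control 1 holds the highest and control 3 the lowest median of upper glycolysis, while the pentose phosphate median stays between -0.15 and 0.14.

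Of the regulators of these genes, 13 were listed. HIF1A was at 84.9, 94.4 and 89.5 normalized CPM in the control and 78.8, 89.4 and 118 in the knockdown (log2 fold change -0.09, SE 0.17). MYC was at 658, 499 and 746 in the control and 755, 685 and 524 in the knockdown (-0.05, SE 0.20). Of the 13 regulators, EPAS1, which encodes another HIF alpha subunit, alone had an unadjusted p under 0.05 (beside 19.2% of all genes). It was at 10.2, 6.34 and 1.41 in the control and 1.52, 1.39 and 3.24 in the knockdown (1.55, SE 0.65, adjusted p 0.244). Control 3 lay among the knockdown libraries for EPAS1. HIF proteins are controlled mainly by their breakdown, which counts do not show. Of the 9 mesenchymal and basal breast markers tested, 9 were also higher in the control, 7 with an unadjusted p under 0.05 (beside 10.4% of all genes). They shared the order within the control, with control 1 the highest control library for 9 and control 3 the lowest for 8 (beside 34.6% and 40.8% of all genes). Their part was not tested. In bulk RNA, fewer cells of a type and less RNA per cell cannot be told apart.

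HIF binds DNA with the core letters ACGTG or GCGTG, and c-Myc binds CACGTG, which contains the first of these. Both strands of the 250 bases before the start site were searched for these letters in RefSeq promoters (GRCh38.p14, the first entry of each gene), where 29 of the 32 genes had an entry. ACGTG lay in 9 of them (31.0%, beside 18.7% of all 27305 promoters), GCGTG in 10 (34.5%, beside 31.9%), and CACGTG in 3, those of ALDOC, GAPDH and LDHA (10.3%, beside 6.49%). SLC2A3, SLC16A1 and PFKFB2 had no entry. The windows of ENO2 and ENO1, and of PFKFB4 and PFKFB3, are shown as pairs of isoenzymes of which ENO2 and PFKFB4 had an unadjusted p under 0.05 and the partners did not. Each is written 5′ to 3′ on the strand of the gene, with the matched letters, or their reverse complement, in capitals. Positions count from the RefSeq start, which in ENO2 and PFKFB4 lies inside the longer GENCODE span given above.
ENO2, chr12:6914450-6914478, plus strand, 118 bases before the start: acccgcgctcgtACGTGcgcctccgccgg
ENO1, chr1:8878742-8878770, minus strand, 72 bases before the start: ggagctgaggggGCGTGccccggaggcgg
ENO1, chr1:8878836-8878864, minus strand, 166 bases before the start: cacccccctttcCACGCtactgcagccgt
PFKFB4, chr3:48556953-48556981, minus strand, 166 bases before the start: tgagttgggcatGCGTGgtcggaggccgg
PFKFB3, chr10:6144741-6144769, plus strand, 168 bases before the start: ggcggcccggccCACGCcccggcttcccc
ENO1, with a log2 fold change of 0.04, and ENO2, with 2.54, thus both held such letters. A match is a run of letters and not a measured binding site.

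A further 50 genes were listed as other genes of these pathways, and 31 of them were tested. Of these, 11 were higher and 20 lower in the control, with a median log2 fold change of -0.24, and 9 had an unadjusted p under 0.05, of which 3 were higher and 6 lower (beside 10.4% and 8.74% of all genes), but none had an adjusted p under 0.05. Without control 1, 2 had an unadjusted p under 0.05 (beside 11.2% of all genes), and without knockdown 2, 5 (beside 10.8%). Higher in the control were the transporters SLC2A8 (0.60, SE 0.26) and SLC2A10 (1.11, SE 0.43), and HKDC1 (0.68, SE 0.25), a hexokinase. Lower were PGD (-0.84, SE 0.18), PGAM5 (-0.82, SE 0.23), G6PC3 (-0.59, SE 0.22), PGP (-0.54, SE 0.21), PRPS1 (-0.39, SE 0.16) and PRPS2 (-0.39, SE 0.14). Despite its symbol, PGAM5 encodes a protein phosphatase and not a glycolytic mutase. PGD, the decarboxylating dehydrogenase of the pentose phosphate branch, was at 123, 147 and 190 normalized CPM in the control and at 255, 297 and 269 in the knockdown, without overlap (adjusted p 0.112). PRPS1 and PRPS2 pass the ribose on to nucleotide synthesis.

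On the gene lengths behind the deposited FPKM, the highest levels were those of ENO1, with a mean of 3380 RPKM ± 912 (SD, n = 3) in the control and 3289 ± 693 in the knockdown, and GAPDH, with 2494 ± 673 and 2355 ± 373. PKM followed with 1920 ± 509 and 2217 ± 418. The order depends on these lengths, which for these genes are shorter than the annotated exons, at 1132 against 5216 bases for ENO1 and 1260 against 2396 bases for GAPDH. These 3 levels overlapped between the groups, and PKM and GAPDH did not differ beyond their spread. SLC2A3 lay far below them, at 418 ± 304 and 110 ± 10.5, and ENO2 lay at 168 ± 143 and 29.0 ± 10.4. Named pseudogenes held at most 0.415% of the reads of their parent gene, which was for PGAM1.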

How the data were processed

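Total RNA of 3 control and 3 Smyca knockdown samples was sequenced after rRNA removal. The authors mapped reads to GRCh38 with TopHat2 2.0.12, counted them per gene with HTSeq and deposited raw read counts for each library. They also deposited an FPKM value per gene, used here only for gene lengths and to check the files. The library kit was strand-specific, but the annotation release and the strand setting of the counting are not given in the sources used here. Reads of overlapping genes on opposite strands may therefore be shared. Beside ENO3 and SLC16A1, such overlaps were annotated for SLC2A1, HK1, PFKM, PFKFB2, ALDOA, ALDOC, TPI1, GAPDH, ENO1, SLC16A3, PGLS, RPE and FBP1.

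Samples were grouped by their labels. Identifiers were matched to GENCODE release 44 (57532 of 58302). Counts, at 14999307 to 16501085 per library, were fitted with edgeR 4.0.16 under R 4.3.3 (TMM scaling, filterByExpr, quasi-likelihood test, Benjamini-Hochberg adjustment over 15075 genes). The SE was the absolute log2 fold change divided by the square root of F. RPKM used TMM-scaled library sizes and the lengths behind the deposited FPKM. Isoenzyme ratios were log2((count + 0.5)/(count + 0.5)) per library, tested with an exact permutation test. The biological coefficient of variation was 25.2%.

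DESeq v1.10.1, which the authors used, was not run. Alternatives were RLE size factors, total counts, other count filters, DESeq2 1.42.0, the replicate number as a block, each replicate left out in turn, and, for control 2, the reads recovered from its FPKM values. The code was tested on simulated data. Every gene of the list was named, and of the other pathway genes and the regulators those with an unadjusted p under 0.05, HIF1A and MYC, and the 3 largest and 1 smallest of the HIF targets. Results for 2 further genes of the comparison lists are not reported here and enter no count. The genes and lists were chosen with earlier results of these data known.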

Additional observations from a re-analysis of the deposited data

Results flagged for a closer look

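The FPKM column deposited for control 2 did not follow the counts deposited for that library, and it was singled out because it carries signal outside the counts that were compared. It was above 0 for 3357 genes that had 0 counts in the same library. In the other 5 libraries the column followed the counts within 1% for every gene compared, and in control 2 it did so for 342 of 21083 genes. Multiplied by gene length and scaled by the library total, the column gave whole reads for 100% of 23593 genes within a tolerance of 0.01, with 16759253 reads in all. For ENO2 these were 887 reads, where the counts were 2585 in control 2 and 842 in control 3. For SLC2A3 they were 3620 reads, against 8327 and 3365 counts. For PFKFB4 they were 252 reads, against 867 and 222 counts. Relative to the library total, 29 of the 32 genes lay closer to control 3 than to the counts of control 2.

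Which of the columns belongs to control 2 was not tested. With the recovered reads in place of the counts, the log2 fold change was 2.23 (SE 0.78) for ENO2, 1.63 (SE 0.61) for SLC2A3, and 1.28 (SE 0.71) for PFKFB4, and 0 genes of the list passed the criteria.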

How the results depend on the processing

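Of 31 genes, 18 kept the sign of their fold change under every alternative run, among them SLC2A3, ENO2, PFKFB4, SLC16A1 and RPIA, and 13 changed sign under at least 1. Genes of the list past the criteria numbered 0 with RLE size factors, total counts, the stricter filter, the replicate block and the FPKM reads of control 2, 4 without a filter and 2 with DESeq2. Those with an unadjusted p under 0.05 and higher in the control numbered 6 with total counts (beside 13.0% of all genes), 7 without a filter and 5 with DESeq2. They numbered 2, or 6.45%, with the replicate block (beside 9.23%) and with the FPKM reads (beside 10.6%), where PFKFB4 was lost. Over all genes, 8 passed with total counts, 916 without a filter, 836 with DESeq2 and 10 with the FPKM reads, and the cause was not tested. Other pathway genes with an unadjusted p under 0.05 numbered 5 with total counts (beside 18.9% of all genes), 13 without a filter, which tests more genes (beside 13.2%), and 12 with the FPKM reads (beside 20.4%). The log2 fold change of Smyca was 1.49 without a filter and 1.51 with DESeq2, where it passed the threshold, as it also did without control 3.

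With total counts, PFKL turned to 0.042 and TPI1 to 0.0094. With the FPKM reads, the median of the list turned to -0.037, GPI to -0.22, PFKM to -0.019, PFKP to -0.037, GAPDH to -0.087, BPGM to -0.11, ENO1 to -0.14, LDHA to -0.0030 and the log2 ratio of ALDOC to ALDOA to -0.39, while ALDOC itself came to 0.75.

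Leaving out 1 library at a time gave 0 to 8 genes of the list past the criteria, 2 to 10 with an unadjusted p under 0.05 higher in the control (beside 6.02% to 15.7% of all genes) and 1 to 2 lower (beside 4.75% to 13.9%), 4 to 14 without overlap (beside 29.4% to 49.2%), 0 to 1628 of all genes past the criteria, and 2 to 9 other pathway genes with an unadjusted p under 0.05. The highest of these came without control 3, except for the genes lower in the control, and without knockdown 1 the groups did not overlap for 11. Without control 1 or knockdown 2, RPIA lost its unadjusted p under 0.05, which left 1 gene lower in the control, and without knockdown 1 PCK2 gained one. The median of the list ran from -0.057 (without control 1) to 0.20 (without control 3). Ranges of the log2 fold change were -0.057 to 0.70 for SLC2A1, -0.18 to 0.34 for GPI, -0.25 to 0.16 for PFKL, -0.12 to 0.35 for PFKP, -0.22 to 0.090 for TPI1, -0.094 to 0.28 for GAPDH, -0.12 to 0.29 for BPGM, -0.14 to 0.23 for ENO1, -0.31 to 0.043 for SLC16A3, -0.078 to 0.30 for PGLS, -0.14 to 0.67 for PCK2, 1.199 to 2.31 for SLC2A3, 1.63 to 2.98 for ENO2, 1.14 to 2.16 for PFKFB4, 0.24 to 1.48 for PFKFB3, 0.25 to 1.03 for HK2, 0.95 to 1.96 for ALDOC, 0.35 to 1.09 for PGK1, 1.33 to 1.81 for Smyca and -0.10 to 0.47 for the log2 ratio of ENO3 to ENO1.

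Replicates of the same number showed no clear pairing. Deviations from the group means correlated at 0.0536, 0.0938 and 0.0207 for the 3 numbers, and at -0.142 to 0.0552 for replicates of differing numbers. Whether replicates of a number shared a culture or harvest was not tested. With the replicate block, 4 genes of the list had an unadjusted p under 0.05 (12.9%, beside 17.03% of all genes) and 0 of all genes passed the criteria.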

Other observations

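PCK1, the cytosolic phosphoenolpyruvate carboxykinase, was counted only in control 1 and control 2, at 1.17 and 1.11 normalized CPM, and had 0 counts in control 3 and in all 3 knockdown libraries. It was named after its values were seen and had too few counts to be tested. TXNIP, an inhibitor of glucose uptake whose transcript follows glucose, was at 50.9, 41.5 and 246 normalized CPM in control 1, 2 and 3, and at 176, 103 and 173 in knockdown 1, 2 and 3. It too was named after its values were seen. Its log2 fold change was -0.41 (SE 0.61), with an adjusted p of 0.740 by the quasi-likelihood test of edgeR. Control 1 and 2 held the lowest TXNIP values of the 6.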
